A study of Mus musculus with 2 samples.

Results

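The glycolytic enzyme genes described here were set by name: Hk1, Hk2, Gpi1, Pfkl, Pfkm, Aldoa, Gapdh, Pgk1, Pkm and Ldha, as far as the array had a probe named for them. Gpi1 had no named probe and is not analysed here, which left 9 of the 10 listed genes, out of 10208 genes with a named probe. Each of the 9 was read by 1 probe. Both arms were mouse haematopoietic cells deficient in E2A, the gene whose products include the transcription factor E47. In the E47ER arm, progenitors had been infected with E47ER, by its name E47 joined to part of the oestrogen receptor, and in the other arm with bHLHER, for which the labels give no more than the name. According to the design text, 4-hydroxytamoxifen, which switches such receptor fusions on, was given 48 h after infection for 6 h in both arms. Total RNA of each arm was labelled with Cy5 and read on 1 CodeLink mouse array, so each group had 1 sample. No array of uninfected, untreated or E2A-sufficient cells was used here, the labels do not name the vector or say how many cultures or animals gave the RNA, and the source label of the bHLHER sample says haematopoietic cells without the word progenitor.

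Glycolysis splits glucose into pyruvate in the cytosol. Hexokinases trap glucose as its phosphate, phosphofructokinase commits the sugar to the pathway and aldolase cuts it, after which glyceraldehyde phosphate dehydrogenase, phosphoglycerate kinase and pyruvate kinase carry the steps that yield NADH and ATP. Lactate dehydrogenase then turns pyruvate into lactate and restores NAD. Several steps are served by isoenzymes from separate genes, and blood progenitors and dividing lymphocytes are known for a high use of the pathway.

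The 9 genes did not move as a block between the arms. Pfkm, the muscle-type phosphofructokinase, was 2.03-fold lower with E47ER, and Pgk1, Aldoa and Hk1 were 1.59-, 1.54- and 1.40-fold higher. Hk2 and Gapdh were 1.36- and 1.27-fold lower, and Pfkl, Pkm and Ldha differed by 1.10-fold or less. The median log2 ratio of E47ER over bHLHER was -0.06 over the 9 genes and -0.05 over all 5534 genes measured on both arrays. With 1 array per group these values have no error and no p-value, and they describe 2 arrays.

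A gene counted as measured when its intensity lay above the array's own median over all probes, 0.957 for E47ER and 0.953 for bHLHER, and the threshold of size was set at 2-fold, or 1 on the log2 scale. All 9 genes were above this floor on both arrays. 1 of the 9 passed the threshold on the lower side, where 0.813% of all measured genes did, and 0 of 9 on the higher side, where 2.31% did. At a threshold of 0.5 on the log2 scale, 2 of the 9 were higher and 1 was lower, against 8.17% and 9.31% of all measured genes. 4 of the 9 had a log2 ratio above 0, against 44.2% of all measured genes. 1 of the 9, Pfkm, lay outside the range of -0.79 to 0.96 that held the central 95% of measured genes. Most of the 9 lay within the range of other genes, and nothing is read from the count of 1.

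**Figure D1:**
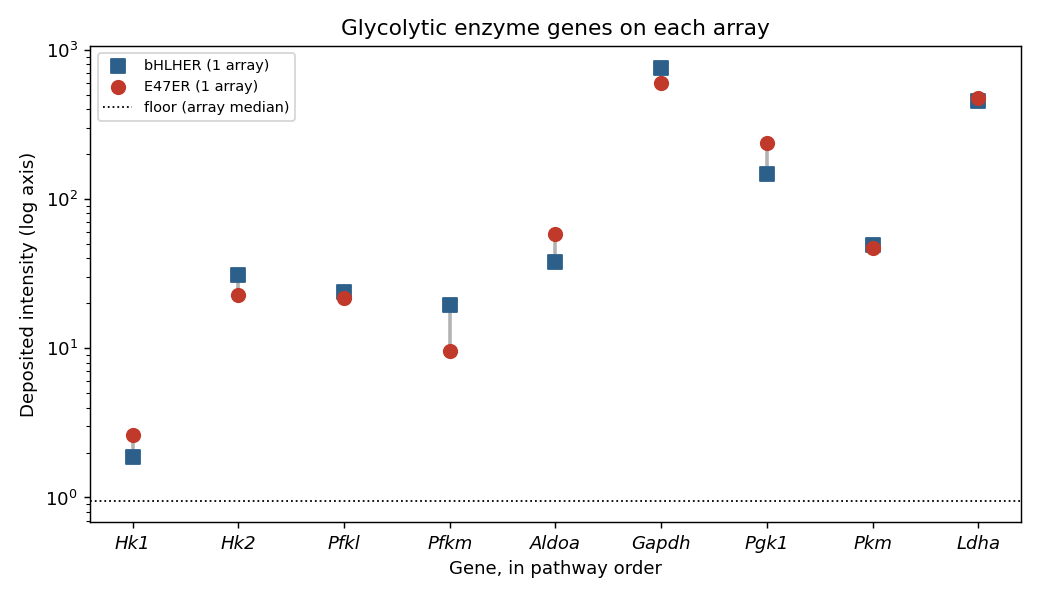
Deposited intensity (log axis) of the 9 glycolytic enzyme genes in pathway order, with 1 array per group: circles for E47ER, squares for bHLHER, and a dotted line at the floor of 0.953. The symbols of Pfkm lie farthest apart (9.54 and 19.4) and those of Pkm and Ldha nearly coincide. Intensities of different probes are not comparable with each other.

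Promoter sequence is shown for Pfkl with Pfkm and for Gapdh with Pgk1, the pairs that hold the lowest and the highest ratio of the set, because E47 and its relatives bind E-boxes (CANNTG). Each window is 300 bases of RefSeq (GRCm38.p6), 250 before and 50 after an annotated transcript start, read 5′ to 3′ along the gene's strand, with E-boxes in capitals. Pfkm has 4 annotated windows, of which the 3 that hold an E-box are shown.
Pfkl (chr10:78009758-78010057, minus strand): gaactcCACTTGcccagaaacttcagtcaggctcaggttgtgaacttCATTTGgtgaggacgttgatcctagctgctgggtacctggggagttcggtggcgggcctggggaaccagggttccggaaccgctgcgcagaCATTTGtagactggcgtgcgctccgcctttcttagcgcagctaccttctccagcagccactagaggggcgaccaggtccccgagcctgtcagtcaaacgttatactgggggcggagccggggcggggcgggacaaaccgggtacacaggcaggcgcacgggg
Pfkm (chr15:98092339-98092638, plus strand): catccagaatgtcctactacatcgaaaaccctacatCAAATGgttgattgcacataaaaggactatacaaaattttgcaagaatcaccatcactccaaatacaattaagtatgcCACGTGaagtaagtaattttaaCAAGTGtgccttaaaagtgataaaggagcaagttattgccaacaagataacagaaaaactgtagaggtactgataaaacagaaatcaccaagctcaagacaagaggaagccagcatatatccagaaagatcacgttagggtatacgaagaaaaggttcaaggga
Pfkm (chr15:98108306-98108605, plus strand): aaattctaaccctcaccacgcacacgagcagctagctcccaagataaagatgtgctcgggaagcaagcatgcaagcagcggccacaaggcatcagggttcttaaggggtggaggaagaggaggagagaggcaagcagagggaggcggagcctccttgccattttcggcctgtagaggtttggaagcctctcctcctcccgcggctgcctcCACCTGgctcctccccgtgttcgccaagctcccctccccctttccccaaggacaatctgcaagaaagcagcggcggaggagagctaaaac
Pfkm (chr15:98111810-98112109, plus strand): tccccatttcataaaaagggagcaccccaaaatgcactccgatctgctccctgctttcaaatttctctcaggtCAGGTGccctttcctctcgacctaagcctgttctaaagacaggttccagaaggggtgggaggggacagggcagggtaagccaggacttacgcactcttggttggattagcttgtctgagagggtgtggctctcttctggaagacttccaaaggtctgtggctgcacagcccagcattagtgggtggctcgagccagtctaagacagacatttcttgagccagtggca
Gapdh (chr6:125165724-125166023, minus strand): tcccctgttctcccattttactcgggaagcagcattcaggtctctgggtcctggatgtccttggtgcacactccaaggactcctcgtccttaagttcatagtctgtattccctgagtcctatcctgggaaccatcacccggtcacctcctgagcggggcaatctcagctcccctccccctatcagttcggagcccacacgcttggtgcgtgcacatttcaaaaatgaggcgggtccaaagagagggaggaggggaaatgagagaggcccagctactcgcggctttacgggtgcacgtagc
Pgk1 (chrX:106186850-106187149, plus strand): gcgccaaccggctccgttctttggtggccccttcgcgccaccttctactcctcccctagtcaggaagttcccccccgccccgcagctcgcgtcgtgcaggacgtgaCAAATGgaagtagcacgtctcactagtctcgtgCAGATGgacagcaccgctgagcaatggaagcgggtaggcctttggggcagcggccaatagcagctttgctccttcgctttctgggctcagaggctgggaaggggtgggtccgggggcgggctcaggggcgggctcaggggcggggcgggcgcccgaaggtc

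All 9 genes matched this promoter table, with 17 windows in all, some of which overlap within a gene. An E-box was present in at least 1 window of 7 genes and in none of Gapdh and Hk2, while 75% of all 27025 genes in the table had one. CAGGTG, searched on both strands and so including CACCTG, was found in windows of 3 of the 9 genes and of 22.6% of all genes, and CAGCTG in 2 of the 9 and 18.3% of all genes. CACGTG was in 2 of the 9, Ldha and Pfkm, and in 8.09% of all genes. The core ACGTG, counted on both strands and also inside CACGTG, was in windows of 8 of the 9 genes, Pfkl being the exception, and of 21.8% of all genes. GCGTG, on both strands, was in 5 of the 9 and in 35.2% of all genes. A gene counted here if any of its windows matched. The 9 genes had more windows per gene than the whole table, which had 32851 windows. Of the 17 windows, 10 held ACGTG, against 19.6% of all windows, 7 GCGTG (32.4%) and 13 an E-box (72.3%). CAGGTG was in 4 of them (20.2%), CAGCTG in 2 (16.3%) and CACGTG in 2 (7.15%). All these are matches of letters in short windows, and the counts were not set against the ratios. The promoters printed above were picked by the ratios and do not stand for the 9 genes.

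Hexokinase, the entry step, was read through 2 of its genes, and they lay on opposite sides of 0. Hk1, the broadly expressed isoenzyme, reached an intensity of 2.61 on the E47ER array and 1.87 on the bHLHER array, a log2 ratio of 0.48. It lay near the floor, at 2.73 and 1.96 times it. Hk2, the isoenzyme known to be induced by growth factors, insulin and hypoxia, had 22.6 with E47ER and 30.7 with bHLHER, a log2 ratio of -0.44. Hk1 was thus brighter with E47ER and Hk2 brighter with bHLHER, and their log2 ratios were 0.92 apart. The only spread available came from 34 other genes with 2 measured probes each, where the median distance between the log2 ratios of both probes was 0.236. In 2 of these 34 genes the probes were at least as far apart as Hk1 and Hk2. Such distances show how far probes of 1 gene disagree on the same 2 arrays. Here and below they are no measure of spread between samples and no error for a difference between the arms. Hkdc1, a further gene of the hexokinase family, had 1.35 and 1.04, near the floor, with a log2 ratio of 0.38.

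Phosphofructokinase catalyses the committed step, and its enzyme is a tetramer that can mix subunits of the liver, muscle and platelet types. Pfkl, the liver-type subunit, reached 21.7 in the E47ER arm and 23.8 in the bHLHER arm, a log2 ratio of -0.14. Pfkm, the muscle-type subunit, had 9.54 with E47ER and 19.4 with bHLHER, a log2 ratio of -1.02, and 0.777% of measured genes had a lower one. Pfkp, the platelet-type subunit, which was not in the set, had 43.1 and 35.2, a log2 ratio of 0.29. The subunit genes therefore lay in the order Pfkm, Pfkl and Pfkp, with Pfkm 0.88 below Pfkl and 1.31 below Pfkp. Probes of 1 gene were at least 0.88 apart in 2 of the 34 genes and at least 1.31 apart in 1. Pfkm passed the threshold by a small margin: its log2 ratio was -0.99 after quantile normalization, -0.96 after a loess fit on brightness and -0.97 when the median of all measured genes was set to 0.

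Because Pfkm is the subunit of skeletal muscle and is also carried by red cells, the markers of both tissues were read. All 4 skeletal muscle markers with a probe (Ckm, Tnnt3, Myog and Mb) were below the floor on both arrays, with summed intensities of 0.877 for E47ER and 0.787 for bHLHER. Of 6 erythroid markers 1, Hba-a1, was above the floor, at 1.03 and 1.11, and the sums were 1.77 for both arrays. Stromal and fibroblast markers were lower with E47ER, as Pfkm was: 9 of the 11 measured out of 16 with a probe had a log2 ratio below 0, against 3088 of all 5534 measured genes, with a median of -0.78 and sums of 68.3 and 92.9, while Igfbp4 was at 0.73. Dcn and Lum of that list were below the floor on both arrays. Macrophage and neutrophil markers had a median of -0.68, with all 3 measured of 5 with a probe below 0 (Mmp8 at -1.45) and sums of 8.22 and 14.5. Progenitor markers had a median of -0.47 and sums of 36.0 and 50.8. Of the 5 measured, 3 were below 0, while Kit (0.17) and Flt3 (0.13) were above it. The share over all measured genes, 3088 of 5534 below 0, stands beside both lists. That of the progenitor markers is near it, and nothing is read from their count. Pan-leukocyte genes, on the other side, had a median log2 ratio of 0.50 over 17 genes, with sums of 881 and 519. Of the 17, 12 were above 0, against 44.2% of all measured genes. Their log2 ratios were not uniform and ran from -0.56 for Cd53 to 1.45 for Selplg. Of the 17, 4 were at least 2-fold higher and none at least 2-fold lower, against 2.31% and 0.813% of all measured genes. The part of stromal, myeloid, progenitor or leukocyte content in the values of the 9 genes was not tested, and fewer cells of a type cannot be told apart from less RNA per cell.

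Aldoa, the main aldolase outside liver and brain, reached 58.2 in the E47ER arm and 37.8 in the bHLHER arm, a log2 ratio of 0.62. Of all measured genes 94.2% had a lower ratio. The next enzyme, triose phosphate isomerase (Tpi1, not in the set), had 13.2 and 16.6, a log2 ratio of -0.32, so neighbouring steps of the pathway lay on opposite sides of 0.

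Below the split of the sugar, Gapdh and Pgk1, which catalyse consecutive steps and are both widely used as reference genes, differed in opposite directions. Gapdh reached 600.3 in the E47ER arm and 759 in the bHLHER arm, a log2 ratio of -0.34. Pgk1 had 236 with E47ER and 148 with bHLHER, a log2 ratio of 0.67, the highest of the 9, and 94.98% of measured genes had a lower one. Their log2 ratios were 1.01 apart, a distance that probes of 1 gene reached in 2 of the 34 genes. The 100 measured genes nearest to Gapdh in brightness had a median log2 ratio of -0.20, and those nearest to Pgk1 one of -0.10. After quantile normalization Gapdh was at -0.02 and its distance from Pgk1 was 0.79. Gapdh, Ldha and Pgk1 have processed copies elsewhere in the mouse genome, and the labels do not say whether these probes also read them.

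The choice of reference moved all 9 values together. With Gapdh set to 0, a choice made after seeing the data, every other log2 ratio was 0.34 higher, Pgk1 passed 2-fold at 1.01 and Pfkm did not at -0.68. Under that choice Pfkl (0.20) and Pkm (0.28) were above 0. With the median of pan-leukocyte genes set to 0, every ratio was 0.50 lower, so that Pfkm was at -1.52 and Hk2 at -0.94, and Hk1 (-0.02) and Ldha (-0.43) were below 0. Pgk1 and Aldoa were above 0 and Hk2 and Pfkm below 0 under all the settings tried. The distances between isoenzymes do not depend on such centring, and under the other settings they ran from 0.86 to 0.92 for Hk1 over Hk2 and from 0.87 to 0.90 for Pfkl over Pfkm.

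**Figure D2:**
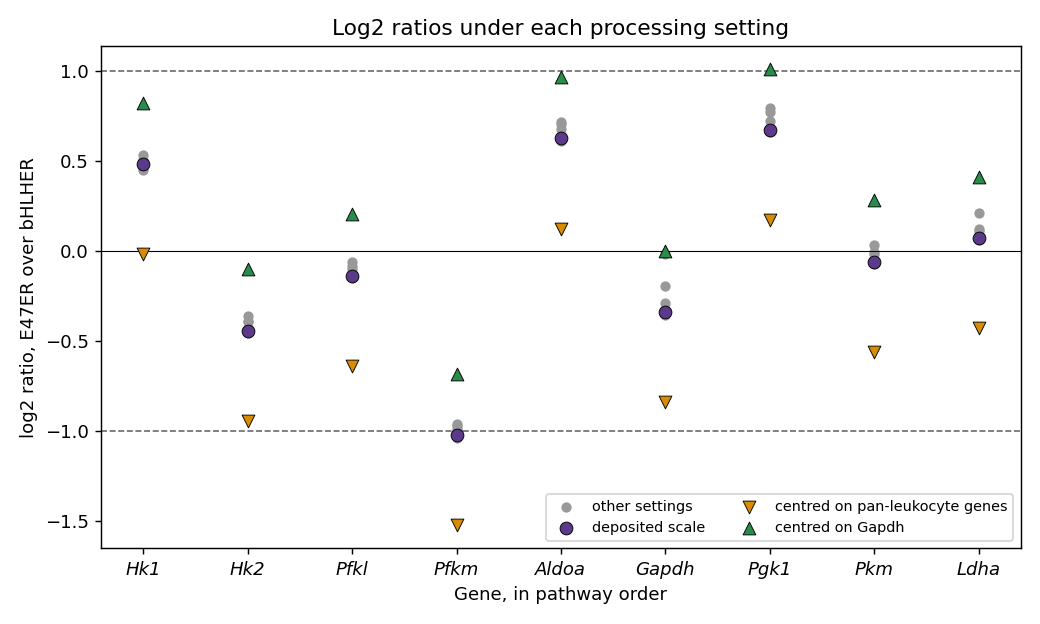
Log2 ratio of E47ER over bHLHER for each of the 9 genes (x axis, pathway order) under each processing setting, with dashed lines at 2-fold. Circles give the deposited scale, triangles pointing down the centring on pan-leukocyte genes and triangles pointing up the centring on Gapdh, which move all genes together (Pfkm from -1.02 to -1.52 or -0.68), while under the other settings Gapdh moved farthest, from -0.34 to -0.02 after quantile normalization.

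Pyruvate kinase and lactate dehydrogenase, the last steps, were nearly level. Pkm has the splice forms M1 and M2, and the sources used here do not say which of them its 1 named probe reads. Pkm had 47.05 with E47ER and 49.02 with bHLHER, a log2 ratio of -0.06. Ldha, the subunit that favours lactate formation, had 477 with E47ER and 454 with bHLHER, a log2 ratio of 0.07. Both differences are smaller than the median distance of 0.236 between probes of 1 gene. The genes of the same steps outside the set, Pklr, the liver and red cell pyruvate kinase, and Ldhb, the other main lactate dehydrogenase subunit, had log2 ratios of 0.61 (3.90 against 2.55) and -0.07 (1.05 against 1.10, next to the floor).

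The 5 measured genes above the split of the sugar (Hk1, Hk2, Pfkl, Pfkm and Aldoa) had a median log2 ratio of -0.14 and the 4 below it (Gapdh, Pgk1, Pkm and Ldha) one of 0.0063. Both parts of the pathway held values on either side of 0, from -1.02 to 0.62 above the split and from -0.34 to 0.67 below it. In order from the lowest ratio the 9 genes were Pfkm, Hk2, Gapdh, Pfkl, Pkm, Ldha, Hk1, Aldoa and Pgk1. The widest of the 8 gaps between neighbours in that order were 0.58, from Pfkm to Hk2, and 0.41, from Ldha to Hk1. Both are larger than 0.236, the median distance between probes of 1 gene, and smaller than 0.71, its 90th percentile. The SD of the signed distance was 0.758, above both gaps, and 0.376 without the widest pair, below both. No spread between samples is known, and for that reason no pair of neighbours in the order is called different.

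**Figure D3:**
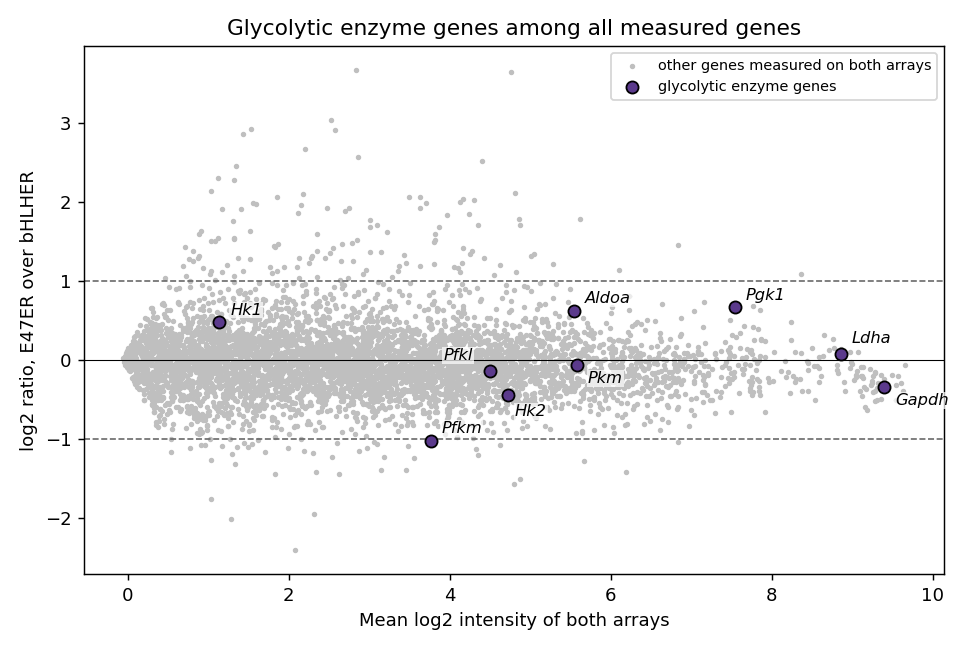
Log2 ratio of E47ER over bHLHER (y axis) against the mean log2 intensity of both arrays (x axis) for the 5534 genes measured on both, with the 9 glycolytic enzyme genes as large labelled points and dashed lines at 2-fold. Pfkm (-1.02) lies at the lower line and the others lie within the cloud, Hk1 at its dim side and Gapdh and Ldha at its bright end.

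The spread of ratios differed with brightness, which bears on how these values are read. When the measured genes were cut into 4 equal groups by mean brightness, 7 of the 9 genes were in the brightest, where 1.66% passed 2-fold in either direction. Pfkm was in the group below it, where 3.76% did, and Hk1 in the dimmest, where 2.96% did. The 100 genes nearest in brightness had a median log2 ratio of -0.03 for Pfkm, 0.05 for Hk1 and -0.12 for Aldoa.

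Of the remaining core genes of glycolysis, 6 of the 8 measured had a log2 ratio above 0, against 44.2% of all measured genes, and 1 passed the threshold. Of 21 such genes listed 14 had a probe and 8 were measured on both arrays. Of the 8, 1 passed the threshold on the higher side and none on the lower, against 2.31% and 0.813% of all measured genes. The median log2 ratio was 0.33, a value that became 0.026 when the floor was raised to the 75th percentile and -0.18 when ratios were centred on pan-leukocyte genes. Eno3, the muscle-type enolase, reached 9.56 in the E47ER arm and 4.66 in the bHLHER arm, 2.05-fold higher, a log2 ratio of 1.04 that was 0.54 with the centring on pan-leukocyte genes. The muscle-type genes Eno3 and Pfkm thus lay on opposite sides of 0. Tpi1 had the lowest ratio of the 8. Pgam1, a phosphoglycerate mutase, had 201 and 197, a log2 ratio of 0.03, and Bpgm, the bisphosphoglycerate mutase known from red cells, had 1.31 and 1.02, near the floor. Pgam2, the muscle-type mutase, was above the floor with E47ER only, at 1.41 against 0.147, at least 1.47-fold higher. The testis-type genes Gapdhs, Pgk2 and Ldhc, and also Eno2 and Eno4, were below the floor on both arrays. Over the 17 measured core genes in and outside the set, 10 were above 0 and the median was 0.07.

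**Figure D4:**
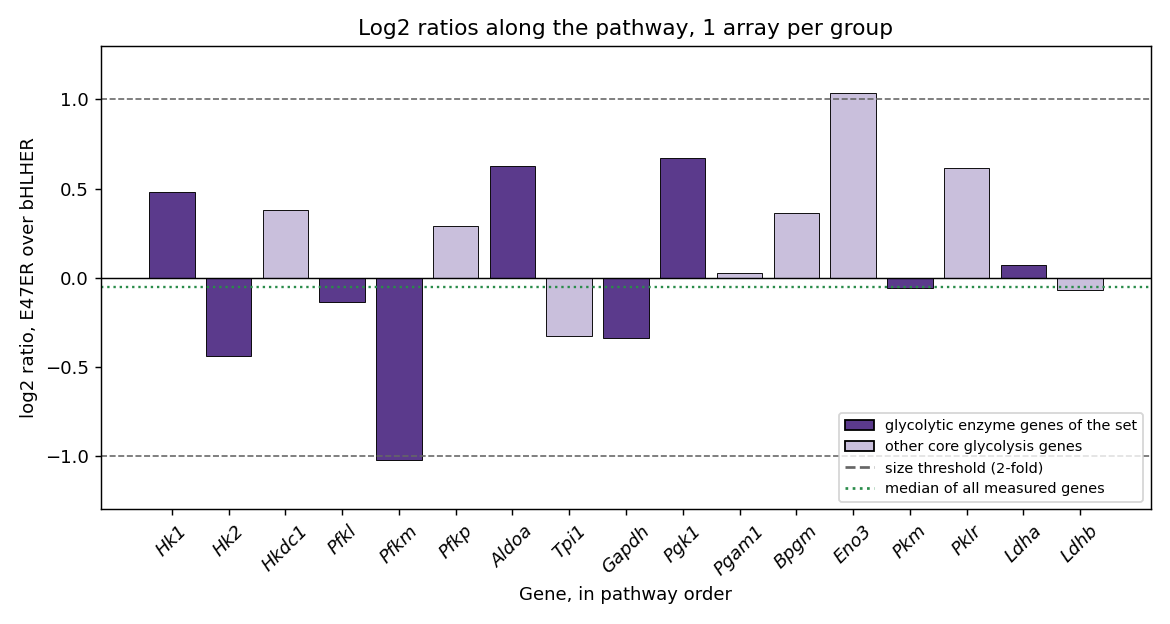
Log2 ratio of E47ER over bHLHER for the 17 core glycolysis genes measured on both arrays, in pathway order, with 1 array per group and no error bars. Dark bars are the 9 genes of the set and pale bars the other core genes, dashed lines mark 2-fold and the dotted line the median of all measured genes (-0.05), and Pfkm (-1.02) and Eno3 (1.04) reach the dashed lines.

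Genes that carry glucose and lactate or steer the pathway were described beside the enzymes. Of 14 transport genes with a probe 4 were measured on both arrays. Among these 4, 1 was at least 2-fold lower and none at least 2-fold higher, against 0.813% and 2.31% of all measured genes. The 4 were Slc16a1, Slc16a7, Emb and the mitochondrial pyruvate carrier gene Mpc1 (log2 ratio -0.54), and no glucose transporter gene was among them. The median log2 ratio of the 4 was -0.69. That median was -0.19 with the floor at the 25th percentile and -0.17 with no floor, where more of the 14 enter. The lactate transporter gene Slc16a1 was level but near the floor (1.74 against 1.71). Emb, which encodes embigin, an accessory protein of such transporters, was 2.67-fold lower with E47ER (44.9 against 119.9). Slc16a7, a further monocarboxylate transporter gene named after its values were seen, had 3.21 and 5.75, a log2 ratio of -0.84. 10 transport genes, among them the glucose transporter gene Slc2a3, were below the floor on both arrays, and Slc2a1 had no named probe and is not analysed here. Of 12 measured regulators 1 was at least 2-fold lower, none at least 2-fold higher and 11 lay between, with a median of -0.10. Over all measured genes, 0.813% were at least 2-fold lower and 2.31% at least 2-fold higher. Myc, a transcription factor known to activate glycolytic genes, had 9.54 with E47ER and 20.1 with bHLHER, a log2 ratio of -1.07, and its log2 ratio was -0.73 with Gapdh set to 0. Txnip, which restrains glucose uptake, had the highest ratio of this list (21.7 against 11.2, log2 0.95). Hif1a, the factor that drives glycolytic genes in low oxygen, had 9.98 and 7.995, a log2 ratio of 0.32, and Pdk1 had no named probe and is not analysed here.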

How the data were processed

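The deposited table gave 1 intensity per probe and array for 20289 probes. The deposited intensities were linear, with medians close to each other; the sources used here do not say how they were scaled or background removed. Values were missing for 119 probes of E47ER and 125 of bHLHER, and 45 and 84 were not above 0. The number of arrays limits the precision. Platform annotation named 10349 probes with 1 symbol each. Any probe listed under several symbols was treated as unnamed, and the brightest probe stood for a gene. Log2 ratios were computed on the deposited scale (Python 3.11.15, pandas 2.3.3), and the size threshold is not a test, since no group had a replicate. Genes named outside the set were those past the threshold, the highest and lowest of each list, Hif1a, Myc, Slc2a1 and Pdk1, and further genes chosen after their values were seen. The members and lists were chosen with earlier results of these data known. Alternatives were quantile normalization, loess (limma 3.58.1, span 0.3), 75th percentile scaling, centring, other floors, the mean over probes, a pseudocount and other thresholds. The ratio calculation was run on simulated data with set fold changes and an assumed noise. That run checks the arithmetic only and says nothing about the error of these arrays. Isoenzyme proteins were not compared.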

Additional observations from a re-analysis of the deposited data

How the results depend on the processing

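No paired analysis was possible because neither group had a replicate, and none could be left out. The median of the 9 glycolytic genes was -0.56 with centring on pan-leukocyte genes and 0.28 with centring on Gapdh, a setting added after seeing the data. The median from hexokinase to aldolase was -0.64 and 0.20 under these settings, and that from Gapdh to Ldha -0.49 and 0.35. The count of 1 lower gene went to 0 after quantile normalization, loess, centring on all measured genes or on Gapdh, and at a threshold of 1.5. The count of 0 higher genes was 1 with centring on Gapdh and 2 at a threshold of 0.5. Over all measured genes, the 128 higher and 45 lower became 204 and 77 with a 25th percentile floor, 43 and 16 with a 75th percentile floor, 545 and 348 without any floor, 56 and 516 with centring on pan-leukocyte genes, 56 and 6 at a threshold of 1.5, and 452 and 515 at 0.5.

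With centring on pan-leukocyte genes the list medians were -0.18 for other core glycolysis genes, -1.19 for transport, -0.60 for regulators, -0.40 for gluconeogenesis, -0.37 for the pentose phosphate pathway, -0.40 for glycogen and hexose interconversion, -0.56 for pyruvate and citrate cycle entry, -0.61 for the serine branch and -0.49 for hypoxia responsive genes. With the floor at the 75th percentile they were 0.026 for other core glycolysis genes, -0.98 for transport and -0.25 for glycogen. The transport median was -0.19 with the floor at the 25th percentile and -0.17 with no floor, where that of gluconeogenesis was -0.14. Centring lowers or raises every ratio alike by construction, and a moved floor changes which genes enter a median; other causes were not tested. Hk1 fell below the floor at the 75th percentile and has no value there.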

Other observations

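None of the 7 measured pentose phosphate genes passed 2-fold, and their median log2 ratio was 0.14. Of all 5534 measured genes, 5361 did not pass 2-fold in either direction, so nothing is read from such counts. Pgls, which encodes the lactonase of that pathway, had the highest ratio at 55.7 with E47ER and 28.5 with bHLHER (log2 0.96), Prps1, a phosphoribosyl pyrophosphate synthetase, the lowest (-0.47), and the transketolase gene Tkt was level at 208 and 203. None of 11 glycogen and hexose genes passed 2-fold, with a median of 0.10. They ran from -0.39 for Pygb to 0.40 for Pygm, the brain- and muscle-type glycogen phosphorylases. Pygm lay near the floor, at 1.68 with E47ER and 1.27 with bHLHER. Gluconeogenesis had 2 measured genes of 7 with a probe. They were Pcx, the pyruvate carboxylase (0.34, near the floor at 1.63 and 1.29), and Gpd2, the mitochondrial glycerol phosphate dehydrogenase (-0.14).

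Of 16 measured genes of pyruvate and citrate cycle entry none passed 2-fold, as 5361 of all 5534 measured genes did not, and the median was -0.06. Below 0 were 10 of the 16, against 3088 of all 5534 measured genes. Me1, the cytosolic malic enzyme, was lowest at 3.43 and 5.42 (-0.66) and Sdhc, a succinate dehydrogenase subunit, highest (0.22). The 4 measured serine branch genes ran from -0.31 for Mthfd2 to 0.09 for Psph. Hypoxia responsive genes outside glycolysis had a median of 0.01 over 13 measured genes, with 1 at least 2-fold higher, Tfrc, the transferrin receptor (39.8 against 9.79), and 1 at least 2-fold lower, Ndrg1 (1.11 against 3.79, the former near the floor).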
